A study of Mus musculus with 8 samples.

Results

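The amino acid and neurotransmitter transporter genes described here are all features of the SLC1, SLC3, SLC6, SLC7, SLC36, SLC38 and SLC43 families. They were taken by a rule on the gene symbol, with earlier results of these data known. They number 59 of the 26711 features in the count matrix and held 0.209% of all unique molecular identifiers (UMIs), each UMI being 1 counted RNA molecule. Single-nucleus RNA-seq covered 102330 nuclei of the primary visual cortex (V1), taken from mice at P21, that is postnatal day 21. All mice carried loxP-flanked alleles of Nr3c1, the glucocorticoid receptor gene (GRfl/fl), and all received an AAV2/5 vector at birth with the astrocyte promoter GfaABC1D. In GR-KO mice the vector encoded Cre and, through a self-cleaving peptide, EGFP with a CAAX membrane anchor. In GR-Con mice it encoded the inactive ΔCre with the same EGFP, so controls carried the floxed alleles and the vector too. Mice were reared in normal light (NR) or in darkness (DR), and the vectors and rearings combined to 4 groups of 2 mice each, with 1 library a mouse and 1 male and 1 female in each group. Levels are given as CPM, that is UMIs of a gene summed over the nuclei of a library and deposited cell type, per 1000000 UMIs of that sum, and values listed per library follow the order male, female.

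The libraries held 9517 to 15161 nuclei and 168632129 to 288774016 UMIs, with a median of 14861 to 29223 UMIs a nucleus, deepest in NR GR-KO. Nr3c1 in astrocytes was not lower in GR-KO, at 231 and 221 CPM in NR GR-Con, 284 and 268 CPM in NR GR-KO, 263 and 207 CPM in DR GR-Con, and 274 and 275 CPM in DR GR-KO. The study's methods state that DRAQ5+ GFP- nuclei were sorted, and UMIs of the whole Nr3c1 transcript do not read the deleted stretch by itself. The genotype labels are therefore not checked by this count, and GR-KO and GR-Con below name the vector given. The paper itself reports EGFP RNA of the vector in astrocytes of these data. It also reports that their GR-dependent genes included many found in its bulk astrocyte RNA-seq. In other mice given astrocyte Cre or ΔCre vectors, the paper stained GR protein in labelled astrocytes to assess the knockout. There it further reports that GR binding to DNA, read by CUT&RUN, was substantially weaker in GR-KO astrocytes. Of 63 marker genes, 52 had their highest level in the type that they define. The others fell on L4, L5IT, L5PT, L6IT, L6CT, Pvalb and Vip, and for L5PT (0 of 2) and L6IT (0 of 3) no marker was highest there. Between libraries, 1220 cell barcodes occurred in 2 or more. Microglia, endothelial cells, smooth muscle cells with pericytes (SMC-Peri), vascular leptomeningeal cells (VLMC) and chandelier cells (ChC) had at least 10 nuclei in only 5, 7, 6, 7 and 3 libraries, and their levels are means over those.

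Transmitter released at synapses is cleared by uptake into neighbouring cells. SLC1 carriers take up glutamate with sodium, and in cortex the astrocyte carriers GLT-1 (Slc1a2) and GLAST (Slc1a3) do most of this. Carriers of the SLC6 family, such as GAT-3 (Slc6a11), remove GABA. SLC38 carriers move glutamine from astrocytes to neurons, where it is turned back into transmitter, and SLC7 light chains paired with an SLC3 heavy chain exchange amino acids such as cystine, serine and leucine across the membrane.

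Of the 59 genes, 43 had a mean of at least 5 CPM in 1 or more of 20 cell types. The 16 that did not include all 3 monoamine carriers (Slc6a2 for noradrenaline, Slc6a3 for dopamine, Slc6a4 for serotonin), the neuronal glycine carrier Slc6a5, the retinal glutamate carrier Slc1a7 and the kidney heavy chain Slc3a1. The rest of the 16 were Slc6a16, Slc6a19, Slc6a21, Slc7a9, Slc7a12, Slc7a13, Slc36a3, Slc38a8, Slc43a1 and Slc43a3. The 43 were spread over the families, with 6 of 7 SLC1 genes, 1 of 2 glycine carriers, 7 of 10 SLC7 light chains, 5 of 5 of the cationic SLC7 branch and 10 of 11 SLC38 genes. The highest mean was in microglia for 9 of them, in astrocytes for 7, in endothelial cells for 6, in VLMC for 6, and in a neuron, oligodendrocyte lineage or mural type for the rest. The map of mean levels shows genes that pass 5 CPM in a single type, such as Slc36a2 in microglia and Slc38a5 in endothelial cells, beside genes that pass it in all 20, such as Slc38a9 and Slc3a2.

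**Figure D1:**
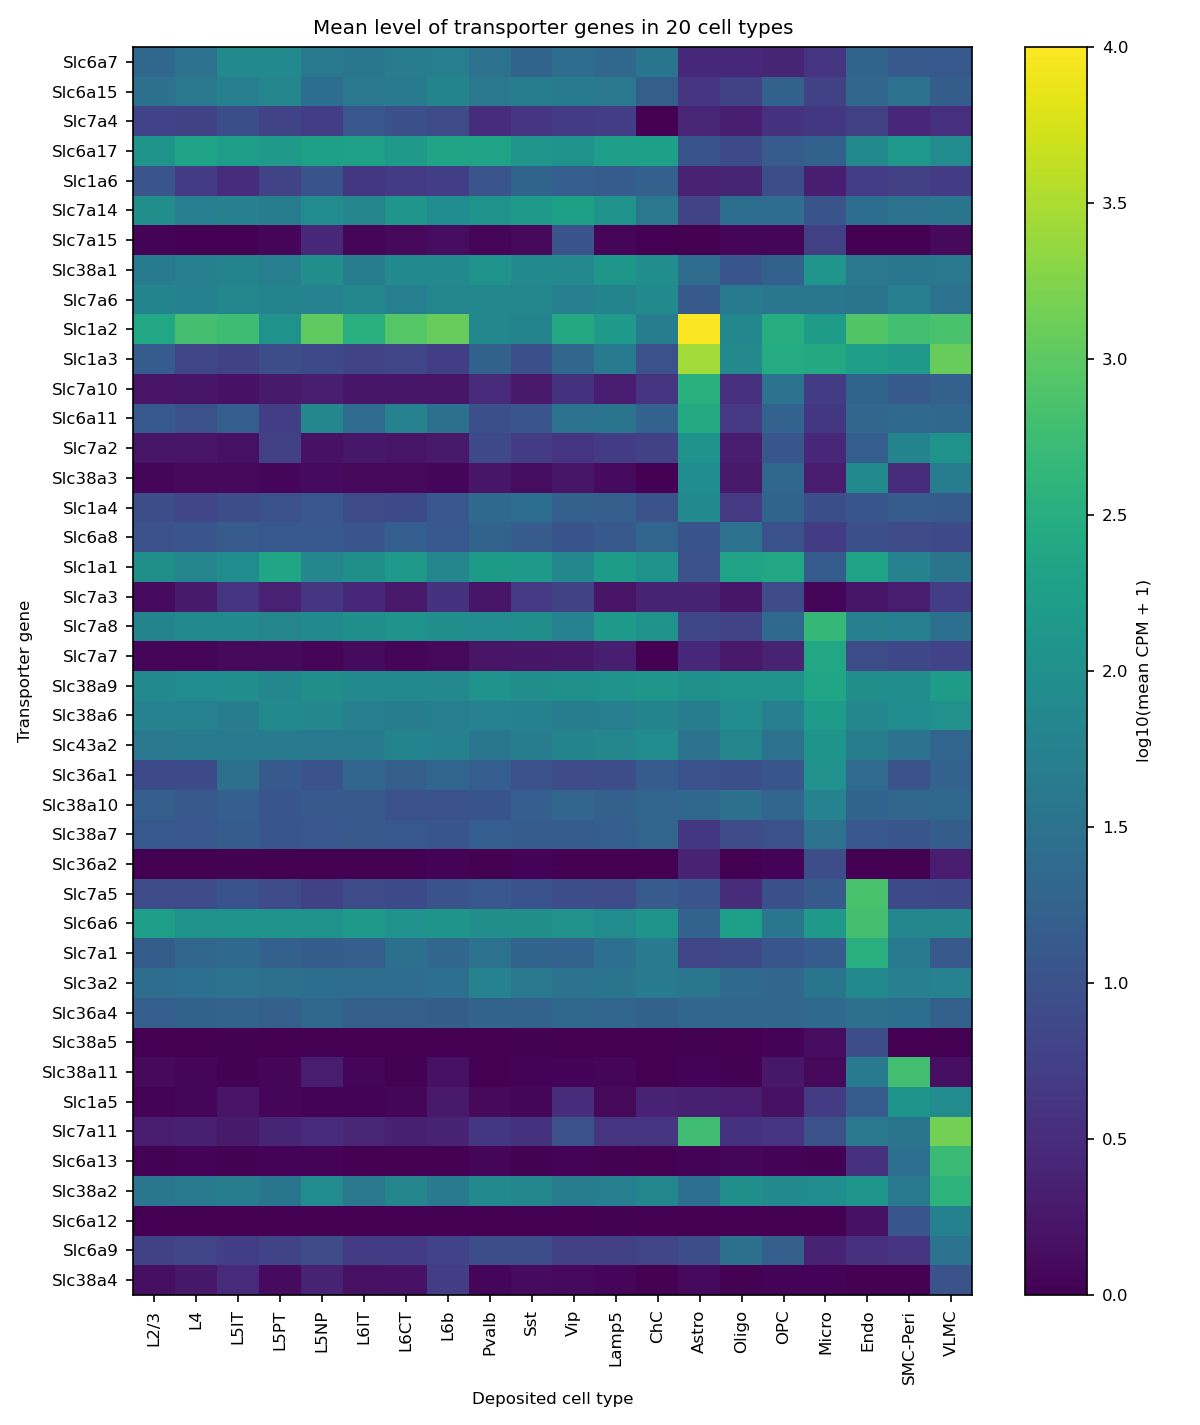
Mean CPM over libraries, as log10(mean CPM + 1), of the transporter genes the text describes (rows) in 20 deposited cell types (columns). Slc1a2 reaches 9418 CPM in astrocytes, while Slc38a9 is at 5 CPM or more in all 20 types.

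Sequences are shown for the promoters of Slc7a11 and Slc6a11, because Slc7a11 was called for rearing in astrocytes and VLMC and Slc6a11 had the most frequent rearing difference outside astrocytes. They are 300-base RefSeq windows around the start site on GRCm38.p6, printed 5′ to 3′ on the gene's strand. Capitals mark matches to TGATGNAAN, the letters of the amino acid response element that ATF4 with a C/EBP partner is known to bind.
Slc7a11 (chr3:50443564-50443863, minus strand): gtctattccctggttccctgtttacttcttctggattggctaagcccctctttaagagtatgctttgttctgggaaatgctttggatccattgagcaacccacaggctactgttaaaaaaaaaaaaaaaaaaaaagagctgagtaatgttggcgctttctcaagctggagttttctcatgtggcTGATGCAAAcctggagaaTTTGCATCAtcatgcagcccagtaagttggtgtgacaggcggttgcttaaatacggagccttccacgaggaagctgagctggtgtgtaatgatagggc
Slc6a11 (chr6:114130991-114131290, plus strand): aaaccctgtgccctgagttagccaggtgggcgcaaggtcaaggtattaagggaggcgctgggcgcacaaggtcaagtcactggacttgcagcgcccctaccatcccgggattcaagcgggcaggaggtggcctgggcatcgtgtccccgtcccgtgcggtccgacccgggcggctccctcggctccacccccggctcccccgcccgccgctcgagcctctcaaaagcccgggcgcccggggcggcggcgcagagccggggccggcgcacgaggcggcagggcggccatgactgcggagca
The Slc7a11 window holds 2 such matches, 1 on each strand, and the Slc6a11 window holds none. Searched on both strands, TGATGNAAN occurred in 3.95% of 32851 promoter windows and in 4 of the 43 transporter genes of the 59 that had a window in the table (9.3%), Slc1a4, Slc6a21, Slc7a11 and Slc7a7. Here and below, the share of all counts windows, while the share of transporters counts genes with a match in any of their windows. The shares are therefore not on the same scale. The cAMP response element TGACGTCA occurred in 1.79% of all windows and in 1 of the 43 (Slc38a6). The full glucocorticoid receptor palindrome, AGAACA followed by NNN and TGTTCT, occurred in 3 of the 32851 windows (0.00913%) and in 0 of the 43. So rare a match was unlikely among 43 genes in any case, and sites outside these windows were not searched. This search therefore cannot tell whether the receptor binds near these genes.

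Of the glutamate carriers, Slc1a2 (chromosome 2, 102658659 to 102790784, plus strand, GRCm38) stood at 9418 ± 841 CPM (SD, n = 8) in astrocytes with a range of 8124 to 10547 CPM. Slc1a3 (chromosome 15, 8634124 to 8710764, minus strand) stood at 2828 ± 278 CPM (n = 8). Per kilobase of gene span, the scale used here to set genes side by side, the mean level in astrocytes was 71.3 CPM per kb for Slc1a2, 36.9 CPM per kb for Slc1a3 and 23.4 CPM per kb for Slc7a10, the serine and alanine exchanger Asc-1. Nuclear RNA is rich in introns, so a count per span is a coarse scale.

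Slc1a2 was also found in excitatory neurons, where it differed between layers. Its level was 1163 ± 53.0 CPM in L6b, 1036 ± 68.0 CPM in L5NP, 866 ± 130 CPM in L6CT, 671 ± 63.2 CPM in L4, 571 ± 76.3 CPM in L5IT, 334 ± 40.4 CPM in L6IT, 252 ± 39.6 CPM in L2/3 and 107 ± 21.6 CPM in L5PT (n = 8 each). The ranges of the neighbours L6b and L5NP overlapped, and those of L2/3 and L5PT did not. As a share of the astrocyte level L6b and L5NP lay at 12.3% and 11%, and L5PT at 1.13%. Other astrocyte genes differed in their shares in L6b, L5NP and L6CT. Slc1a4 stood at 14.3% of its astrocyte level in L6b, 14.6% in L5NP and 9.06% in L6CT. Slc1a3 stood at 0.158% of its astrocyte level in L6b, 0.243% in L5NP and 0.205% in L6CT, and 8 astrocyte markers summed stood at 0.558%, 0.407% and 0.402%. In L2/3 the summed markers stood at 3.95% and Slc1a2 at 2.68%, with Gpc5 alone at 125 to 849 CPM of marker sums of 146 to 866 CPM. In endothelial cells, SMC-Peri and VLMC, Slc1a2 was at 8.60%, 6.64% and 7.46% of its astrocyte level and the summed markers at 7.01%, 5.03% and 6.50%, close to each other. The part of astrocyte RNA in those vascular values was not tested.

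**Figure D2:**
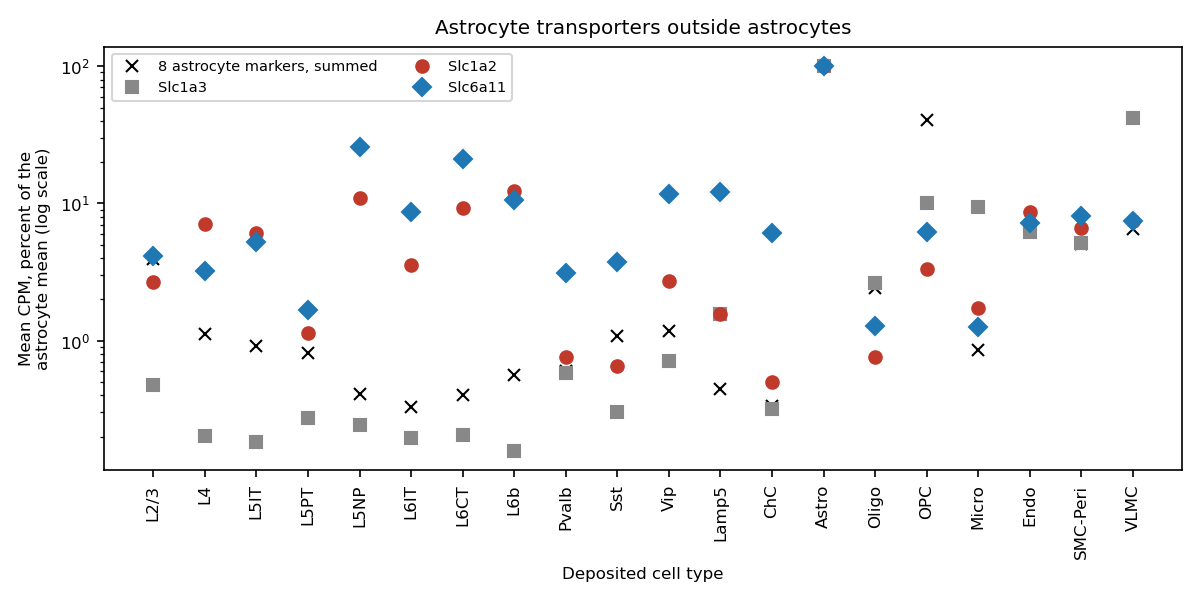
Mean CPM in each deposited cell type as percent of the mean in astrocytes (log scale) for Slc1a2, Slc1a3, Slc6a11 and the sum of 8 astrocyte markers. In L5NP, L6CT and L6b, Slc1a2 and Slc6a11 lie at 9.20% or more while Slc1a3 lies at 0.243% or less, and in vascular types the 4 series lie close together except for Slc1a3 in VLMC.

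Slc1a1 (EAAC1), the neuronal glutamate and cysteine carrier, was highest in oligodendrocyte precursor cells (OPCs) at 251 ± 31.2 CPM (n = 8) and next in L5PT at 220 CPM, with overlapping ranges. Slc1a6 (EAAT4), known from Purkinje cells, reached 18.2 ± 2.22 CPM in Sst neurons and overlapped ChC. Slc1a4 (ASCT1), a serine and neutral amino acid exchanger, was highest in astrocytes at 77.3 ± 27.4 CPM, where the DR GR-Con female library at 144 CPM set the upper end of the range. Slc1a5 (ASCT2), a glutamine exchanger of dividing and vascular cells, was highest in SMC-Peri at 118 ± 66.8 CPM (n = 6) and overlapped VLMC.

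GABA carriers differed in the types that held them. Slc6a11 (chromosome 6, 114131241 to 114249952, plus strand) was highest in astrocytes at 278 ± 27.6 CPM. Like Slc1a2 it was present in excitatory neurons and differed between their types. It lay at 25.7% of the astrocyte level in L5NP, 21.1% in L6CT, 10.6% in L6b and 8.68% in L6IT. Lower shares were found in L5IT (5.26%), L2/3 (4.16%), L4 (3.22%) and L5PT (1.66%). In Lamp5 it lay at 12.2% and in Vip at 11.8%. Slc6a13 (GAT-2) and Slc6a12 (the betaine and GABA carrier BGT1) were highest in VLMC at 528 ± 228 CPM and 55.3 ± 29.8 CPM (n = 7), and Slc6a12 overlapped SMC-Peri. Both were under 1 CPM in astrocytes and in the summed excitatory and inhibitory neurons.

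Other members had their highest mean in non-neuronal types. In endothelial cells, which form the blood-brain barrier, Slc7a5 (LAT1, the leucine and thyroid hormone carrier) was at 717 ± 166 CPM, 54.0-fold above the next type, Slc6a6 (the taurine carrier) was at 650 ± 148 CPM and Slc7a1 (CAT-1, for arginine and lysine) at 315 ± 89.0 CPM (n = 7). The 10 neuron markers summed to 5054 to 7426 CPM in endothelial nuclei, 1448 to 10216 CPM in SMC-Peri and 1844 to 8637 CPM in VLMC, against 12297 to 14627 CPM in L2/3 and L4, and their part in the vascular levels was not tested. The heavy chain Slc3a2 (4F2hc), with which Slc7a5 pairs, was highest in endothelial cells too, at 77.7 ± 16.3 CPM. Its range overlapped Pvalb, and it was at 5 CPM or more in all 20 types. In microglia Slc7a8 (LAT2) was at 467 ± 34.9 CPM, Slc38a9 (a lysosomal arginine sensor) at 229 ± 10.2 CPM and Slc7a7 (y+LAT1) at 238 ± 28.2 CPM, the last 33.0-fold above the next type (n = 5). Slc38a11 was highest in SMC-Peri at 614 ± 262 CPM (n = 6), 13.4-fold above endothelial cells. Slc7a11 (xCT, the cystine and glutamate exchanger) was at 1435 ± 742 CPM in VLMC (n = 7) and 594 ± 223 CPM in astrocytes, with overlapping ranges, and under 10 CPM in the summed neurons. Slc38a2 (SNAT2), which brings in small neutral amino acids, was highest in VLMC at 382 ± 105 CPM. Slc6a8, the creatine carrier, was highest in oligodendrocytes at 31.3 ± 3.05 CPM.

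The remaining astrocyte genes differed in how far they were shared. Slc38a3 was at 86.4 ± 13.4 CPM in astrocytes and 81.0 CPM in endothelial cells, and Slc7a2 at 114 ± 14.6 CPM in astrocytes and 112 CPM in VLMC, with overlapping ranges. Slc7a10 was at 344 ± 27.5 CPM in astrocytes, 10.4-fold above OPCs and without overlap. In microglia Slc38a6 (155 ± 15.1 CPM), Slc43a2 (117 ± 35.4 CPM), Slc36a1 (104 ± 14.7 CPM, a lysosomal proton-coupled carrier), Slc38a10 (58.6 ± 4.29 CPM), Slc38a7 (29.9 ± 5.29 CPM) and Slc36a2 (7.74 ± 1.99 CPM) had their highest means. Of these, Slc38a6, Slc43a2 and Slc38a7 had ranges that overlapped the next type. Endothelial cells were highest for Slc36a4 (28.6 ± 13.6 CPM) and Slc38a5 (7.79 ± 5.78 CPM), and VLMC for the glycine carrier Slc6a9 (32.0 ± 12.6 CPM) and Slc38a4 (9.58 ± 8.76 CPM), all with ranges that overlapped the next type. OPCs were highest for Slc7a3 (7.535 ± 3.25 CPM), ChC for Slc7a6 (77.9 ± 9.86 CPM) and L6IT for Slc7a4 (11.3 ± 2.79 CPM), each with a range that overlapped the next type.

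A further group of members had their highest mean in neurons. Slc6a17 (NTT4, a vesicular neutral amino acid carrier) was highest in L6b at 212 ± 37.8 CPM and overlapped Pvalb. Slc7a14 (a lysosomal cationic carrier) was highest in Vip at 184 ± 29.9 CPM and overlapped Sst. Slc38a1 (SNAT1, which brings glutamine into neurons) was highest in Lamp5 at 128 ± 10.7 CPM, with microglia next at 120 CPM and overlapping ranges. Slc6a7, the brain proline carrier, was at 77.8 ± 10.8 CPM in L5PT and 77.7 CPM in L5IT, with overlapping ranges. Slc6a15, a further neuronal neutral amino acid carrier, reached 66.0 ± 7.43 CPM in L5PT and overlapped L6b. Slc7a15 passed 5 CPM only in Vip neurons, at 9.675 ± 3.91 CPM, with microglia next at 4.77 CPM and overlapping ranges.

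Levels were then compared between classes over the 8 libraries with the edgeR quasi-likelihood test, with library as a term. Between astrocytes and the summed 8 excitatory types, 35 of 41 tested transporter genes passed an adjusted p of 0.05, 13 higher and 22 lower in astrocytes, where 85.7% of all 17379 features were called, near the 85.4% of the transporters. The difference (log2, astrocytes minus excitatory) was 8.64 for Slc7a10 (SE 0.16, adjusted p = 5.9e-20), 8.52 for Slc7a11 (SE 0.18, 6e-19), 8.46 for Slc38a3 (SE 0.15, 5.4e-20) and 8.12 for Slc1a3 (SE 0.23, 3.5e-17). It was 3.93 for Slc1a2 (SE 0.09) and 3.50 for Slc6a11 (SE 0.09), the genes with the levels in excitatory types given above. In the other direction stood Slc6a7 at -4.53, Slc6a17 at -4.26, Slc7a14 at -4.05, Slc7a8 at -4.00 and Slc1a1 at -3.83. Slc36a4, Slc38a9 and the heavy chain Slc3a2 were not called, with differences of -0.01, 0.02 and 0.11.

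Between the summed 5 inhibitory and the summed excitatory types, 33 of 41 were called, 23 higher and 10 lower in inhibitory neurons, where 72.2% of all features and 80.5% of the transporters were called. Slc7a15 was higher by 3.63 (SE 0.16) and Slc7a2 (CAT-2) by 2.24 (SE 0.13). Slc1a2 was lower, at -2.35 (SE 0.09, 1.2e-14), at 113 ± 19.03 against 502 ± 43.9 CPM, and Slc38a4 at -2.06 (SE 0.17). For Slc6a11 the difference was -0.47 (SE 0.09, 8.2e-05).

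The first design question was whether transporter expression in astrocytes differed with the vector or with rearing. Counts were fitted with the edgeR likelihood ratio test in each cell type, as in the methods of the study, with 2 libraries against 2, and calls were made at a Benjamini-Hochberg adjusted p under 0.05 over all features. Because 2 libraries a group give little hold on the spread, the numbers that quasi-likelihood and DESeq2 called stand beside it. A log2 fold change is positive where the first-named group is higher. Slc1a3, Slc6a11, Slc38a3 (SNAT3, the astrocyte glutamine exit route) and Slc7a10 were called in none of the astrocyte comparisons, with log2 fold changes between groups from -0.26 (Slc1a3, DR against NR in GR-Con) to 0.23 (Slc6a11, DR against NR in GR-KO).

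In NR mice, 3 of 39 tested transporter genes were called in astrocytes between the genotypes, all higher in GR-KO, where 7.11% of all features were called. Quasi-likelihood and DESeq2 each called 1 other gene, Slc1a2, and none of the 3, and with sex as a term 9 were called. Slc38a1 stood at 18.2 and 13.7 CPM in NR GR-Con and 24.5 and 28.4 CPM in NR GR-KO (a difference of 0.67, SE 0.20, edgeR adjusted p = 0.014). Slc7a14 went from 4.11 and 3.14 to 8.30 and 6.47 CPM (0.94, SE 0.29, 0.021), and Slc1a1 from 6.985 and 6.27 to 12.7 and 10.6 CPM (0.74, SE 0.23, 0.019). The median log2 fold change was -0.00912 over the 39 and 0.00127 over all features. The libraries of the groups did not overlap for any of the 3, and in excitatory neurons these genes were at higher levels than in astrocytes. Each of the 3 calls was lost in 1 fit over all 8 libraries and without the NR GR-Con female. Slc7a14 and Slc1a1 were also lost without the male of either group, and Slc38a1 without the NR GR-KO female. Neuron markers moved the same way in these astrocyte nuclei: the sum of 10 was 653 and 506 CPM in NR GR-Con and 1030 and 1056 CPM in NR GR-KO, and 8 of the 10 were called higher. Their part in the calls was not tested.

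Slc1a2 stood at 10547 and 10077 CPM in NR GR-Con and 8124 and 8410 CPM in NR GR-KO, without overlap. In the same nuclei the 8 astrocyte markers summed to 12367 and 12089 CPM in NR GR-Con and 10012 and 10780 CPM in NR GR-KO, also without overlap, and their part in the Slc1a2 values was not tested. The log2 fold change of -0.38 (SE 0.16) gave an adjusted p of 0.17 by the edgeR likelihood ratio test and was not called. The call depended on the fit, since the quasi-likelihood test gave an adjusted p of 0.02, DESeq2 one of 0.0092, edgeR with sex as a term one of 0.00012 and 1 fit over all 8 libraries one of 0.25. In DR the values were 9633 and 9165 CPM in GR-Con and 9318 and 10072 CPM in GR-KO, with a difference of 0.07 (95% interval -0.33 to 0.47). The interaction of genotype and rearing was -0.46 (SE 0.23, edgeR adjusted p = 1).

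For GR-KO against GR-Con in DR, 0 of 35 transporter genes were called in astrocytes by edgeR, where 0.736% of all features were called, and 2 passed 0.05 before adjustment. Neither quasi-likelihood nor DESeq2 called any, but the count was above 0 with sex as a term and moved on leaving out single libraries. Slc38a1 was at 26.6 and 10.4 CPM in DR GR-Con and 43.4 and 34.4 CPM in DR GR-KO, without overlap, and its log2 fold change of 1.07 was not called (SE 0.44, edgeR adjusted p = 0.49).

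With rearing as a term and all 8 libraries in the fit, 2 of 39 transporter genes were called between genotypes in astrocytes, where 4.79% of all features were called. Of these, Slc38a1 was higher in GR-KO by 0.87 (SE 0.26, edgeR adjusted p = 0.024). The Slc38a1 call was lost by the quasi-likelihood test and without the NR GR-Con female, the NR GR-KO female or either DR GR-KO library, at an adjusted p up to 0.17.

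For DR against NR in GR-Con, 0 of 37 transporter genes were called in astrocytes by any of the 3 tests (edgeR likelihood ratio, edgeR quasi-likelihood, DESeq2), where 0.147% of all features were called, and 4 passed 0.05 before adjustment. In GR-KO, 2 of 38 were called, both higher in DR, where 2.85% of all features were called, and the quasi-likelihood test and DESeq2 called 1 each. Slc7a11 stood at 317 and 405 CPM in NR GR-Con, 610 and 443 CPM in NR GR-KO, 440 and 871 CPM in DR GR-Con and 848 and 815 CPM in DR GR-KO. It was higher in DR by 0.74 in GR-KO (SE 0.17, edgeR adjusted p = 0.0021) and over both genotypes by 0.79 (SE 0.20, adjusted p = 0.017), and the estimate of 0.84 in GR-Con was not called (SE 0.35, adjusted p = 0.72). Its pair in DR GR-Con differed more than any other pair. That pair lay above both NR GR-Con libraries and overlapped the NR GR-KO libraries. The call over both genotypes was lost by the quasi-likelihood test and without the NR GR-Con male, the NR GR-KO female or either DR GR-KO library (adjusted p up to 0.2), and the call in GR-KO in 1 fit over all 8 libraries and without the NR GR-KO female or either DR GR-KO library (up to 0.44). Slc38a1 was higher in DR by 0.62 in GR-KO (SE 0.17, adjusted p = 0.013), a call lost under both other tests, in 1 fit over all 8 libraries and without the NR GR-KO male or either DR GR-KO library (adjusted p up to 0.78). All 10 neuron markers were called lower in DR in the same comparison, at a median of -0.678 on the log2 scale, and their part in these values was not tested.

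Slc7a5, the leucine carrier, was the transporter called over both genotypes whose astrocyte libraries did not overlap by rearing, at a low level. It stood at 16.3, 11.65, 13.2 and 10.9 CPM in the 4 NR libraries and at 7.22, 6.89, 8.42 and 7.375 CPM in the 4 DR libraries. The change over both genotypes was -0.76 (SE 0.18, edgeR adjusted p = 0.0081), and DESeq2 called it and the quasi-likelihood test did not. It was lost without the NR GR-Con male, the NR GR-KO male or the DR GR-KO female (adjusted p up to 0.14). Within single genotypes Slc7a5 was not called, at -0.99 in GR-Con (SE 0.31, edgeR adjusted p = 0.22) and -0.53 in GR-KO (SE 0.22, adjusted p = 0.22). For this astrocyte comparison over both genotypes, which also gave the Slc7a11 call above, no share of all features called was taken as background. In DR GR-Con the female library stood apart for several astrocyte transporters, with the highest Slc7a11 (871 CPM), Slc1a4 (144 CPM) and Slc38a2 (72.9 CPM, from a lowest library of 11.6 CPM) and the lowest Slc1a3 (2282 CPM) and Slc38a1 (10.4 CPM). Its neuron markers in astrocytes summed to 990 CPM against 560 CPM in the male of its group, and their part in these values was not tested.

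**Figure D3:**
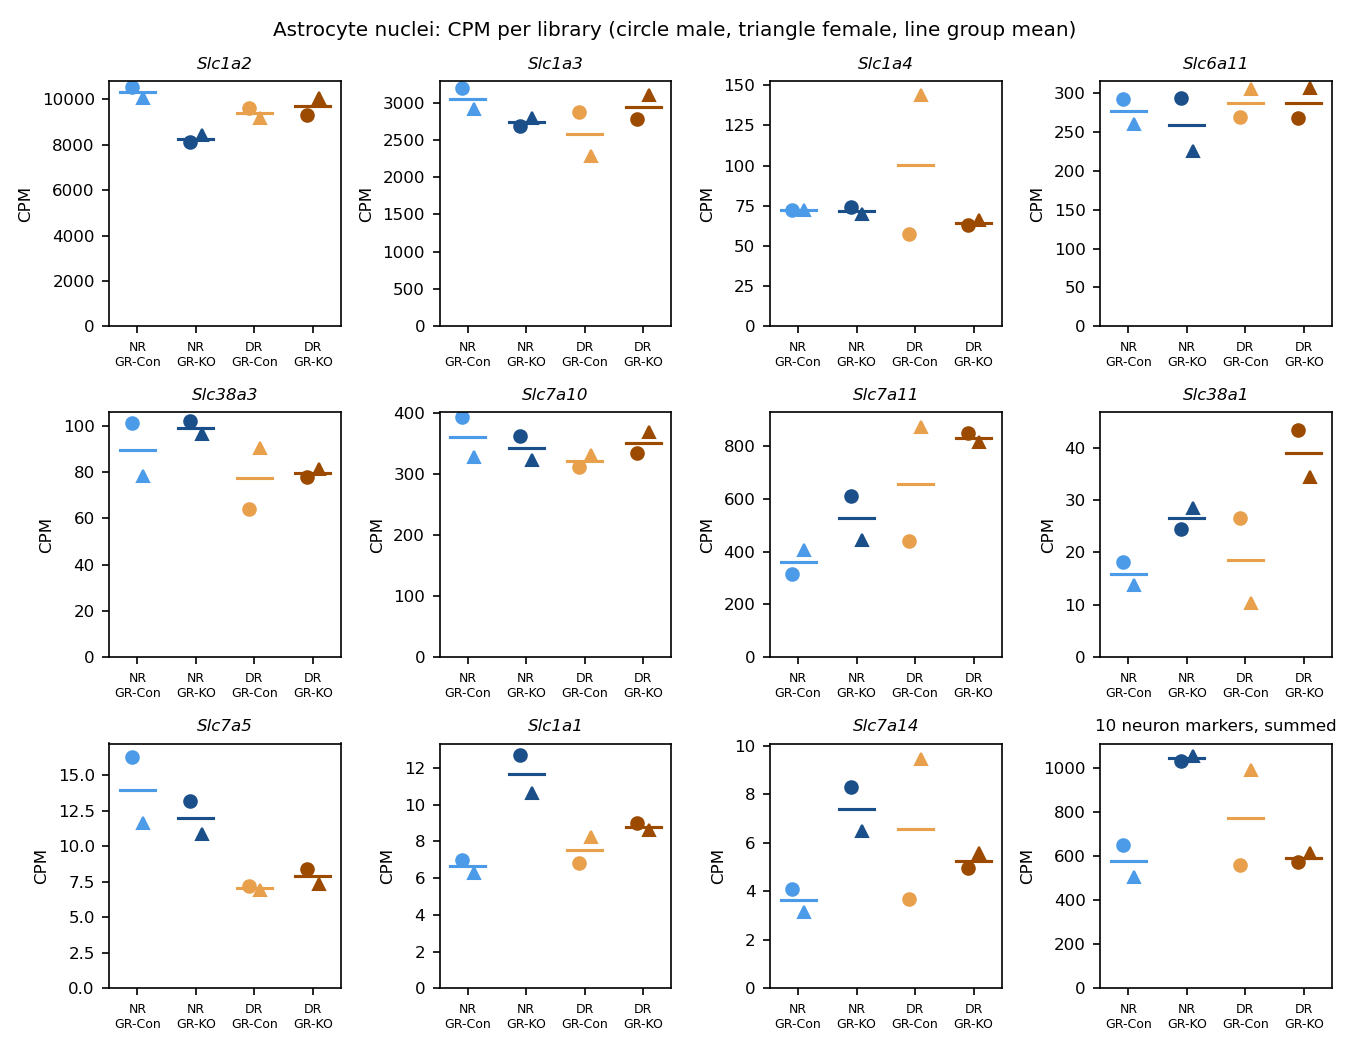
CPM per library in astrocyte nuclei for transporter genes named in the comparisons and for the sum of 10 neuron markers, by group (circle male, triangle female, line group mean). Slc7a5 separates the 4 DR from the 4 NR libraries, Slc1a2 is lowest in NR GR-KO, and the neuron marker sum is high in NR GR-KO and in the DR GR-Con female.

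Genes that work with these carriers were read in astrocytes from lists of such genes. Of 22 tested genes of glutamate, glutamine, GABA and serine metabolism, 4 were called between the genotypes in NR, where 7.11% of all features were called. Bcat2 and Bcat1, the branched-chain aminotransferases that hand amino groups from leucine, isoleucine and valine to glutamate, fell by 1.08 and 1.28 on the log2 scale, while the neuronal genes Gad1 and Slc17a7 were higher by 0.80 and 0.75 along with the neuron markers above. Bcat2 was at 82.45 and 82.45 CPM in NR GR-Con, 37.3 and 44.1 CPM in NR GR-KO, 58 and 108 CPM in DR GR-Con and 43.6 and 39.1 CPM in DR GR-KO, so that the 4 GR-KO libraries lay below the 4 GR-Con libraries. Between the genotypes in DR 1 of the 22 was called (Bcat1, at -1.62), and over all 8 libraries Bcat1 and Bcat2 were, at -1.43 and -1.03. Of all features, 0.736% and 4.79% were called in these 2 comparisons. Bcat1 was low, at 1.46 to 6.57 CPM in the astrocyte libraries. For DR against NR in GR-KO 3 of the 22 were called, where 2.85% of all features were called. They were the neuronal genes Gad2, Gad1 and Slc17a7 at -1.28, -0.84 and -0.67. Glutamine synthetase (Glul), the enzyme that follows Slc1a2 uptake, stood at 761 and 754 CPM in NR GR-Con and 667 and 542 CPM in NR GR-KO. In DR it stood at 699.5 and 660 CPM in GR-Con and 584.5 and 615 CPM in GR-KO. GR-KO thus lay below GR-Con without overlap within each rearing, and Glul was not called. Of 8 tested amino acid response genes, 1 was called between the genotypes in NR (Nupr1, at -0.82) and 0 in DR, where 7.11% and 0.736% of all features were called. For DR against NR, 0 were called in GR-Con and 1 in GR-KO (Nupr1, at -0.94), where 0.147% and 2.85% of all features were called. The response list summed to 115 to 163 CPM in the 8 astrocyte libraries.

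The second question was whether transporters differed with rearing in the other cell types. Over both genotypes, 26 of 486 tested pairs of a transporter gene and a cell type were called, 21 higher and 5 lower in DR, where 5.55% of all tested pairs of a feature and a type were called. The share of the transporters was 5.35%, near that background, and the median log2 fold change was 0.0389 over the transporter pairs and -0.00496 over all pairs. The quasi-likelihood test called 18 and DESeq2 30. Most calls were in L2/3 (8 of 43 tested genes) and L6CT (6 of 38), the types with the most calls over all features (15.9% and 12.5%).

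Slc6a11 was higher in DR in the most types. In L6CT neurons it stood at 35.0 and 39.2 CPM in NR GR-Con, 41.7 and 36.1 CPM in NR GR-KO, 63.4 and 76.3 CPM in DR GR-Con and 90.7 and 85.75 CPM in DR GR-KO. All 4 DR libraries thus lay above all 4 NR libraries, with a log2 fold change of 1.06 (SE 0.11, edgeR adjusted p = 1.1e-17). By genotype it was 0.91 in GR-Con (SE 0.18, adjusted p = 5.4e-05) and 1.20 in GR-KO (SE 0.16, 1.6e-11), and the interaction of -0.29 (SE 0.22, adjusted p = 1) gave no call. The 8 astrocyte markers in L6CT summed to 40.6 and 38.9, 44.3 and 47.3, 33.5 and 56.5, and 47.1 and 47.8 CPM in the same order of groups. Among them Aldh1l1 stood at 12.1 to 20.2 CPM in NR and 14.1 to 27.7 CPM in DR, and Aldoc at 5.33 to 6.65 CPM in NR and 2.36 to 4.68 CPM in DR. Their part in the Slc6a11 values was not tested.

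Slc6a11 was called in 4 further types, at 0.73 in OPCs (SE 0.20, edgeR adjusted p = 0.02), 0.53 in Lamp5 (SE 0.13, 0.0089), 0.49 in L6IT (SE 0.12, 0.002) and 0.46 in L5NP (SE 0.10, 0.002). In all 14 types tested outside astrocytes the estimate lay above 0, from 0.17 in L4 to 1.06 in L6CT, with all types read from the same 8 libraries. In astrocytes, the type with the highest level, it was 0.14 (95% interval -0.11 to 0.39, adjusted p = 0.8), and whether types differ in this was not tested. The calls in L6CT, L6IT and L5NP held under every alternative tried, while the Lamp5 call was lost without the NR GR-Con male, the DR GR-Con female or the DR GR-KO male (adjusted p up to 0.091) and the OPC call by the quasi-likelihood test and without any 1 of 6 libraries (up to 0.15). DESeq2 gave no adjusted p for either. In Lamp5 the summed astrocyte markers stood at 60.4 and 90.2 CPM in NR GR-Con and 71.6 and 60.2 CPM in NR GR-KO. They stood lower, at 18.6 and 24.6 CPM in DR GR-Con and 22.1 and 49.45 CPM in DR GR-KO, and their part in the Lamp5 call was not tested.

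**Figure D4:**
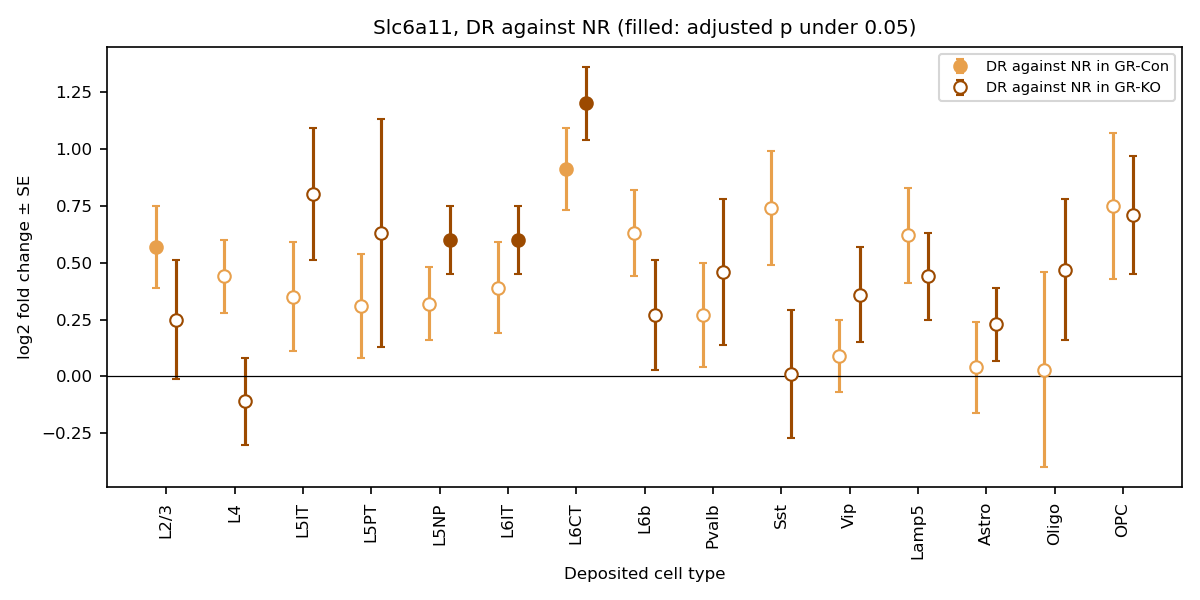
Slc6a11, log2 fold change of DR against NR with its SE, by deposited cell type and separately in GR-Con and GR-KO (filled points have an adjusted p under 0.05). L6CT has the highest estimates at 0.91 in GR-Con and 1.20 in GR-KO, and astrocytes lie at 0.04 in GR-Con and 0.23 in GR-KO.

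Among glutamate carriers, Slc1a6 was called higher in DR in 2 of 14 types tested and Slc1a1 in 3 of 14. Slc1a6 in L2/3 stood at 6.35, 6.34, 7.21 and 6.96 CPM in the NR libraries and at 13.7, 14.7, 14.3 and 11.7 CPM in the DR libraries (1.01, SE 0.11, edgeR adjusted p = 2.7e-16), and it was called in L6CT too (0.48, SE 0.15, 0.014). Slc1a1 in oligodendrocytes stood at 161, 161, 156 and 179 CPM in NR and at 232, 240, 231 and 250 CPM in DR (0.54, SE 0.10, 1.1e-05). It was higher also in L4 (0.38, SE 0.09, 0.0016) and in L2/3 (0.36, SE 0.10, 0.0041). In each of these except Slc1a6 in L6CT and Slc1a1 in L2/3, the call held under every alternative, with Slc1a1 in L2/3 lost only without the NR GR-KO female (adjusted p = 0.055), and the 4 DR libraries did not overlap the 4 NR libraries in any of them.

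Slc1a3 fell in oligodendrocytes, from 84.6, 82.3, 87.4 and 85.5 CPM in NR to 64.6, 49.6, 67.8 and 70.5 CPM in DR (-0.42, SE 0.12, edgeR adjusted p = 0.017), a call lost by the quasi-likelihood test and without either NR GR-Con library, the NR GR-KO male or the DR GR-KO male. It fell by 0.95 on the log2 scale in L5PT neurons (SE 0.15, adjusted p = 9.8e-07), where the libraries read 14.4 and 13.2, 8.01 and 4.81, 5.78 and 7.75, and 4.09 and 3.94 CPM in the order of groups used above. There NR GR-KO overlapped DR, and the gene was called for genotype in NR too. Its mean in L5PT was 0.274% of its astrocyte level, near the share of Slc7a10, at 0.281%. Of the astrocyte markers in L5PT, Aldoc read 3.66 to 6.03 CPM in NR and 1.43 to 4.2 CPM in DR, and Gja1 1.48 to 2.38 CPM in NR and 0.927 to 1.66 CPM in DR. Gpc5 read 53.3 to 93.4 CPM in NR and 54.4 to 113 CPM in DR, and Aqp4 0.159 to 1.07 CPM and 0.713 to 1.29 CPM. Aldh1l1, Gfap, Ntsr2 and Fgfr3 were at 2.94 CPM or less, and NR and DR overlapped for each of the 8. The sum of 8, most of it Gpc5, was 65.9 to 104 CPM in NR and 62.7 to 120 CPM in DR. The part of these markers in the fall was not tested. In L2/3 Slc1a3 was higher in DR in GR-Con, from 6.04 and 4.79 CPM in NR to 20.1 and 25.2 CPM in DR (2.01, SE 0.20, adjusted p = 5.2e-21). In GR-KO it read 15.8 and 6.80 CPM in NR and 21.4 and 6.70 CPM in DR, where each pair overlapped the other. Of 8 astrocyte markers in L2/3, Gpc5 stood at 174 and 125, 605 and 281, 849 and 329, and 543 and 431 CPM in the order of groups used above. Aldoc read 4.34 to 6.31 CPM in NR and 2.4 to 3.89 CPM in DR, without overlap, and Aldh1l1 6.64 to 11.6 CPM and 8.92 to 12.8 CPM. Over all 8 libraries Aqp4 was at 0.373 to 1.38 CPM, Gja1 at 1.43 to 3.04 CPM, Gfap at 0.235 to 1.08 CPM, Ntsr2 at 1.9 to 3.15 CPM and Fgfr3 at 0.573 to 1.08 CPM. The part of these markers in the Slc1a3 values was not tested.

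Carriers of cationic and neutral amino acids were called in neurons as well. Slc7a14 in L2/3 stood at 69.7, 65.5, 92.55 and 63.6 CPM in NR and 97.9, 134, 121 and 97.4 CPM in DR (0.63, SE 0.15, edgeR adjusted p = 0.00083). Slc7a1 was higher in L4 (0.62, SE 0.17, 0.0082) and L6CT (0.63, SE 0.18, 0.0084), although NR and DR libraries overlapped in both. Slc38a10 was higher in L2/3 (0.46), L6CT (0.43) and L4 (0.31), and Slc43a2 (LAT4, which lets out large neutral amino acids) in L6CT (0.45) and L2/3 (0.34). Of these, Slc7a14 in L2/3, Slc7a1 in L4 and Slc43a2 in L6CT were called under every alternative, and each of the others was lost without at least 1 library. The vesicular carrier Slc6a17 fell in L2/3 by 0.32 (SE 0.09, adjusted p = 0.0029), from 124 to 133 CPM in NR to 98.0 to 109 CPM in DR. In OPCs Slc1a4 was called (0.79, SE 0.23, adjusted p = 0.038), but NR and DR libraries overlapped and the quasi-likelihood test did not call it. The 26 also held Slc36a1 (0.41) and Slc7a2 (-0.73, under 2 CPM in each library) in L2/3 and Slc6a6 in Pvalb (0.30).

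**Figure D5:**
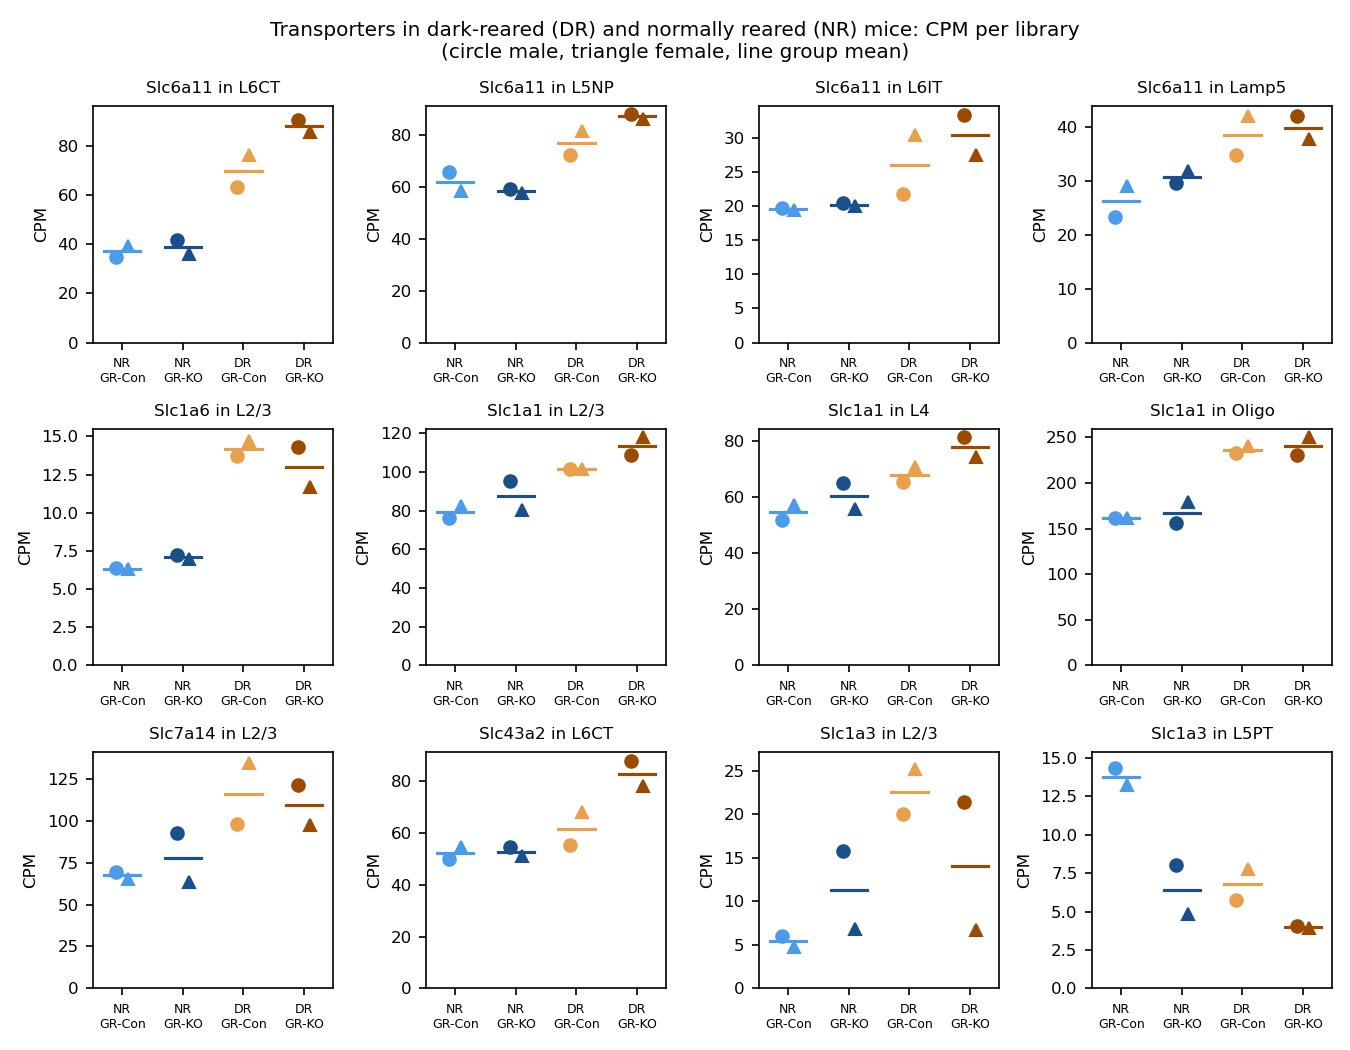
CPM per library of transporter genes in cell types where DR and NR were compared, by group (circle male, triangle female, line group mean). Slc6a11 in L6CT, Slc1a6 in L2/3 and Slc1a1 in oligodendrocytes read higher in each of the 4 DR libraries than in any NR library.

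Within GR-Con alone, 7 of 474 pairs were called for DR against NR, 6 of them higher, where 2.40% of all pairs were called. Quasi-likelihood called 2 (Slc1a6 and Slc1a3 in L2/3) and DESeq2 7. The others were Slc6a11 in L6CT and L2/3 (0.57, SE 0.18, edgeR adjusted p = 0.027), Slc7a14 in L2/3 (0.73), Slc7a11 in Vip neurons (1.11) and Slc1a3 in L5PT (-1.03). Each of these others was lost without at least 1 library. Within GR-KO, 29 of 531 pairs were called, 18 higher and 11 lower, where 3.71% of all pairs were called. Quasi-likelihood called 11 and DESeq2 23. The comparisons within GR-Con and within GR-KO share no libraries, and a call in 1 of them alone does not show a difference between genotypes, which the interaction tests below.

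Of the 29 calls in GR-KO, 10 fell on VLMC, where 19.9% of all 6109 features were called and single libraries held 20 to 65 nuclei. Slc7a11 was at 620 and 935 CPM in NR GR-KO and 2579 and 2189 CPM in DR GR-KO (1.35, SE 0.37, edgeR adjusted p = 0.0024). The GABA carrier Slc6a13 rose from 296 and 390 to 839 and 758 CPM (0.95, SE 0.33, 0.023) and Slc1a3 from 717 and 835 to 1867 and 1972 CPM (1.05, SE 0.33, 0.0098). Slc38a3 rose from 27.7 and 23.7 to 85.7 and 80.1 CPM (1.45, SE 0.38, 0.0016) and Slc38a6 from 66.4 and 75.3 to 189 and 140 CPM (0.93, SE 0.33, 0.027). The taurine carrier Slc6a6 fell from 108 and 90.6 to 22.6 and 23.4 CPM (-2.32, SE 0.44, 3.2e-06), and Slc7a8, Slc1a1, Slc7a14 and Slc6a17 fell by 2.07, 1.86, 1.67 and 1.33 on the log2 scale. The call that held under every alternative was Slc6a6. In the same VLMC nuclei the 10 neuron markers summed to 7175 and 8077 CPM in NR GR-KO and to 1844 and 2129 CPM in DR GR-KO. Their part in these calls was not tested.

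Outside VLMC, the calls within GR-KO included Slc6a11 in L6CT, L5NP (0.60) and L6IT (0.60), Slc1a6 in L2/3 (0.92), Slc43a2 in L6CT (0.67) and L2/3 (0.51), Slc1a1 in oligodendrocytes (0.55), and Slc7a14 in L4 (0.77) and L5IT (0.65). Of these, quasi-likelihood called Slc6a11 and Slc43a2 in L6CT and Slc7a14 in L4. DESeq2 called all but Slc6a11 in L5NP and Slc7a14 in L5IT. Each call except Slc6a11 in L6CT was lost without at least 1 library. Slc7a14 was called in neither L4 nor L5IT over both genotypes. Its L5IT call was lost under both other tests, without the filter and without the NR GR-KO female or either DR GR-KO library. Slc1a3 fell in L6IT (-1.05), L6CT (-0.71) and L4 (-0.70), at 8.42 CPM or less in every library of those 3 comparisons. Its mean there was 0.195%, 0.205% and 0.203% of its astrocyte level, near the shares of Slc7a10, at 0.2%, 0.223% and 0.195%. These 3 calls held under 7, 4 and 6 of 10 alternatives, and each was lost by quasi-likelihood. The astrocyte marker sum went from 35.8 and 38.7 to 32.0 and 32.7 CPM in L6IT, from 44.3 and 47.3 to 47.1 and 47.8 CPM in L6CT and from 204 and 129 to 133 and 65.0 CPM in L4. Within the L6CT sum, Aldh1l1 went from 12.1 and 17.7 to 26.3 and 27.7 CPM. Aldoc went from 6.45 and 5.33 to 2.79 and 2.89 CPM and Gpc5 from 16.5 and 17.9 to 12.3 and 12.4 CPM. Gja1 went from 3.83 and 2.63 to 2.3 and 2.33 CPM. Aqp4, Gfap and Ntsr2, at 2.14 CPM or less, were lower in both DR GR-KO libraries too, and Fgfr3 overlapped. The part of these markers was not tested. Slc6a17 fell in oligodendrocytes, from 10.2 and 12.25 CPM in NR GR-KO to 4.44 and 4.43 CPM in DR GR-KO (-1.31, SE 0.26, edgeR adjusted p = 9.8e-05), and of 10 alternatives 9 called it and DESeq2 did not. The 10 neuron markers in these nuclei, given with the interaction, were lower in DR GR-KO too, and their part was not tested.

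The third question was whether the astrocyte vector changed transporters in other cell types. Between the genotypes in NR, 3 of 528 pairs were called, where 0.370% of all pairs were called, and neither the quasi-likelihood test nor DESeq2 called any, with 32 past 0.05 before adjustment. The 3 were low in level and are named after their values were seen: Slc1a3 in L5PT (-0.94, SE 0.21, edgeR adjusted p = 0.0027), Slc7a11 in oligodendrocytes (1.48, SE 0.42, 0.031) and Slc6a17 in oligodendrocytes (1.05, SE 0.25, 0.003). In DR, 3 of 469 pairs were called, where 0.496% of all pairs were called, with 0 under quasi-likelihood and 2 under DESeq2. Slc7a1 in L4 was at 17.3 and 18.7 CPM in DR GR-Con and 26.5 and 34.4 CPM in DR GR-KO (0.80, SE 0.19, adjusted p = 0.0041), Slc7a5 in L6CT at 4.48 and 5.61 against 10.2 and 11.2 CPM (1.09, SE 0.22, 0.0006), and Slc7a8 in Sst neurons at 85.0 and 86.9 against 112 and 116 CPM (0.43, SE 0.12, 0.042). Of 10 alternatives, 8 called Slc7a1 in L4, 6 called Slc7a5 in L6CT and 3 called Slc7a8 in Sst, which DESeq2 did not call. The shares of the transporters were 0.568% in NR and 0.64% in DR. With sex as a term more pairs were called in each rearing. Over both rearings, with rearing as a term, 2 of 486 pairs in 14 types were called between genotypes, where 0.0803% of all pairs were called, with 30 past 0.05 before adjustment, 0 called under quasi-likelihood and 1 under DESeq2. Both fell in L5PT, where 34 members were tested and 0.238% of all features were called. Slc1a3, whose L5PT values are given above, was lower in GR-KO by a log2 fold change of -0.84 (SE 0.16, edgeR adjusted p = 0.00025), with overlapping groups, and the quasi-likelihood test was the 1 alternative of 13 that did not call it. Slc7a5 was higher in GR-KO by 0.73 (SE 0.18, adjusted p = 0.033), a call held under 5 of 13 alternatives.

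The interaction takes the difference between genotypes in DR from the same difference in NR, and it was called for 1 of 525 pairs, where 0.181% of all pairs were called, and for 0 under quasi-likelihood or DESeq2, with 44 past 0.05 before adjustment. It was Slc6a17 in oligodendrocytes (1.65, SE 0.41, edgeR adjusted p = 0.024), at 5.37 and 5.11 CPM in NR GR-Con, 10.2 and 12.25 CPM in NR GR-KO, 5.50 and 8.27 CPM in DR GR-Con and 4.44 and 4.43 CPM in DR GR-KO. The 10 neuron markers in the same nuclei summed to 441 and 394, 792 and 982, 405 and 722, and 433 and 460 CPM, in the same order, and their part in the call was not tested.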

How the data were processed

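The authors aligned reads with Cell Ranger 8.0.1 to mm10 with the vector's EGFP added, used Seurat 5.3.0, removed predicted doublets with DoubletFinder and named cell types by clustering, per the labels and the study's methods. The deposited matrix holds raw UMI counts per gene and nucleus, and the deposited cell table gives library, rearing, sex, vector, cell type and the percent of mitochondrial UMIs. Cell types were used as given.

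UMIs were summed per library and type, and a type entered a fit with at least 10 nuclei in each library. edgeR 4.0.16 in R 4.3.3 (TMM, filterByExpr, glmLRT, two-sided, Benjamini-Hochberg over all features of a fit) tested groups, and glmQLFTest with library as a term tested classes. The SE is the fold change over the square root of the test statistic, and intervals use 1.96 SE. CPM are not TMM-scaled. Alternatives were the quasi-likelihood test, DESeq2 1.42.0, RLE scaling, no filter, a sex term, 1 fit over all 8 libraries and leaving out each library. Scripts were tested on simulated data.

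Named were chosen astrocyte carriers (Slc1a2, Slc1a3, Slc6a11, Slc38a3, Slc7a10), each member called in astrocytes, members called in at least 2 other types in 1 direction, and the 5 called pairs of largest fold change among those averaging 4 or more in log2 CPM. The counts include 1 member that is not reported here. Members and lists were chosen with earlier results of these data known. Gene spans are from GENCODE vM21 on GRCm38.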

Additional observations from a re-analysis of the deposited data

Results flagged for a closer look

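The genotype difference of Slc6a17 in oligodendrocytes was 1.65 log2 units larger in NR than in DR by the edgeR interaction test (SE 0.41, adjusted p = 0.024), which is why it is listed here. The call held under 5 of 13 alternatives, with adjusted p from 0.00061 to 0.51.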

How the results depend on the processing

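No paired analysis was possible because the library names carry no replicate number, and males and females of different groups share only their sex, which the sex term reads. Of 80 calls, each of 1 transporter gene in 1 cell type and 1 comparison and covering 59 distinct pairs of a gene and a type, the quasi-likelihood test called 33, DESeq2 called 51 and 15 were called under every alternative. None of 1344 alternative values of single genes reversed a called direction, 300 lost the call and 7 gained one, among them Slc1a2 in astrocytes in NR with a sex term (adjusted p = 0.00012).

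In astrocytes the genotype count in NR went from 3 to 1 by the quasi-likelihood test, 1 by DESeq2, 9 with a sex term and 0 in 1 fit over all 8 libraries, and from 0 to 3 on leaving out 1 library, with 0 without the NR GR-Con female and 1 without the NR GR-Con male. In DR it went from 0 to 1 with a sex term and from 0 to 9 on leaving out 1 library, with 3 without the DR GR-Con female and 9 without the DR GR-Con male. Over both rearings it went from 2 to 1 by the quasi-likelihood test and without the filter, and from 0 to 5 on leaving out 1 library, with 5 without the DR GR-Con female, 1 without either NR male and 0 without either NR female or either DR GR-KO library. For DR against NR in GR-Con it went from 0 to 1 in 1 fit over all libraries and from 0 to 8 on leaving out 1 library, again with 8 without the DR GR-Con male. In GR-KO it went from 2 to 1 by the quasi-likelihood test and DESeq2, 0 in 1 fit over all libraries, and 0 to 3 on leaving out 1 library, with 0 without either DR GR-KO library and 1 without the NR GR-KO female.

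In other types the count for genotype in NR went from 3 to 0 by the quasi-likelihood test and DESeq2, 10 with a sex term, and 0 to 10 on leaving out 1 library, with 0 without the NR GR-Con male and 8 and 10 without the NR GR-KO female and male. In DR it went from 3 to 0 by the quasi-likelihood test, 6 with a sex term, 1 in 1 fit, and 0 to 21 on leaving out 1 library, with 0 without the DR GR-KO female and 10 and 21 without the DR GR-Con female and male. For rearing in GR-Con it went from 7 to 2 by the quasi-likelihood test and 2 to 28 on leaving out 1 library (2 without the NR GR-Con male, 15 and 28 without the DR GR-Con female and male), and in GR-KO from 29 to 11 by the quasi-likelihood test, 47 with a sex term, and 8 to 64 on leaving out 1 library (8 and 9 without the DR GR-KO male and female, 64 without the NR GR-KO male). Over both genotypes it stayed within 1.5 times of 26 except on leaving out 1 library (13 to 38, with 13 without the NR GR-Con male, 14 without the DR GR-KO male and 15 without the NR GR-KO female). For genotype over both rearings, a count added after seeing the data, it went from 2 to 0 by the quasi-likelihood test, 1 by DESeq2 and without the filter, and 1 to 5 on leaving out 1 library, with 5 without the NR GR-KO female and 1 without the DR GR-KO female or either NR GR-Con library. The interaction count went from 1 to 0 by the quasi-likelihood test and DESeq2, 2 with a sex term, and 0 to 12 on leaving out 1 library, with 12 without the DR GR-Con male, 5 without the NR GR-KO male and 0 without either NR GR-Con library or the DR GR-KO female. The cause of these moves was not tested. The class counts stayed within 1.5 times. The top transporter of a type was the same by CPM and per kilobase of span in 10 of 20 types.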
